A study of Mus musculus with 40 samples.

Results

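Rarres1 (retinoic acid receptor responder 1, also known as tazarotene-induced gene 1) codes for a membrane protein related to latexin, and its close neighbour Lxn codes for latexin itself, an inhibitor of carboxypeptidases. The members described here were the 12 CpG cytosines, of 400298 listed for liver, that lay from 67265000 to 67335000 on chromosome 3 of the mouse genome (build mm9), a window that holds the 5′ part of Lxn, the whole of Rarres1 and the region before Rarres1. The window was chosen on measured values of these same mice, because 2 of its 1000 bp bins, 67318001 to 67319000 in Rarres1 and 67329001 to 67330000 upstream of it, differed between diets. The diet differences below are therefore a description and support nothing by themselves; no p-value is given for them, and counts of members past a threshold are printed only beside the share of all CpGs past it.

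Methylation was measured by reduced representation bisulfite sequencing (RRBS), in which DNA is cut at CCGG by the enzyme MspI and bisulfite turns unmethylated cytosines into uracil, so that each read tells whether a CpG was methylated. The 40 samples were livers of C57BL/6 males of 9 weeks (the study's methods name C57BL/6J), 10 in each of 4 groups given by the dam's diet and the diet after weaning, low fat (LF) or high fat (HF). They are written here with the dam's diet first: LF/LF, LF/HF, HF/LF and HF/HF animals. The study gave the maternal diets to dams and divided the males of a cage between the post-weaning diets. Animals of the same group, and of groups that share a maternal diet, can therefore be littermates. The labels name no litter, and mice were treated as independent. Standard errors and permutation p-values thus count pups rather than dams, and the standard errors of maternal differences may be too small. All mice were unmodified males of 1 strain. Whole liver is a mixture of cells, and a level between 0 and 100% in bulk DNA cannot tell apart cells that differ from alleles that differ within a cell.

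Retinoic acid, made from vitamin A that the liver stores, acts through nuclear receptors on genes such as Rarres1. Cytosine methylation at CpGs of a promoter is commonly found with silent genes, while CpGs in introns and between genes are mostly methylated in adult tissue. RRBS reads the ends of MspI fragments, so it shows a gene only where such fragments lie.

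The 12 cytosines lay on 3 MspI fragments, shown here because they held all the listed CpGs of the locus. Only CpGs with at least 10 reads in at least 33 mice are listed, so other cytosines may have been read. Each sequence is the plus strand of mm9, read from the reference genome, with CpGs in capitals.
Rarres1 intron 1 fragment, chr3:67318474-67318562: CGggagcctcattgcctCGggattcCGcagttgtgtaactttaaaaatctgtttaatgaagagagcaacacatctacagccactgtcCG
Fragment upstream of Rarres1, chr3:67329770-67329836: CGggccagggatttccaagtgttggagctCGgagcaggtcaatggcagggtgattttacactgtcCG
Fragment upstream of Lxn, chr3:67267929-67268036: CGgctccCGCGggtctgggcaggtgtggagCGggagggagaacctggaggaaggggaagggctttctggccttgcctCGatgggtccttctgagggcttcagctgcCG

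Rarres1 is annotated on the minus strand from 67282894 to 67319445, with its first exon at 67319083 to 67319445, and the annotation marks the 5′ start of the transcript as not found. The intron fragment, 89 bp long, lay in intron 1 (67299734 to 67319082) and held 4 listed cytosines, at 67318474, 67318491 and 67318499 on the plus strand and at 67318562 on the minus strand, 883 to 971 bp inside the gene from its annotated start. They are called intron CpGs 1 to 4. The upstream fragment, 67 bp long, lay outside any annotated gene, 11208 bp from the intron CpGs, and held 4 listed cytosines, at 67329770 and 67329799 on the plus strand and at 67329800 and 67329836 on the minus strand, 10325 to 10391 bp before the annotated start. They are called upstream CpGs 1 to 4, and numbers 2 and 3 are the 2 strands of the same CpG. The Lxn fragment, 108 bp long, held 4 listed cytosines, at 67267929, 67267936, 67267938 and 67267959 on the plus strand, 81 to 111 bp before the start of Lxn (minus strand, 67261920 to 67267848) and within an intron of Gfm1, a mitochondrial translation elongation factor gene on the plus strand (67234018 to 67280451). No listed CpG lay at the annotated Rarres1 start.

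Single-end reads of 50 bases began at fragment ends, so CpGs 1 to 3 of the intron were read on the same molecules, as were upstream CpGs 1 and 2, upstream CpGs 3 and 4, and the 4 Lxn CpGs. They are not independent. The intron bin has 24 CpGs and 46% GC in the reference, more CpGs than 67.4% of the 82673 bins with listed CpGs, and the upstream bin has 11 CpGs and 45.4% GC, more CpGs than 18.6% of those bins. The letters AGGTCA, the core to which retinoic acid receptors and several other nuclear receptors bind, occurred once in the 3 fragments (both strands searched), at 67329805 to 67329810 of the upstream fragment. Windows of 201 bp centred on the CpGs held the letters at 4 of 4 upstream, 0 of 4 intron and 0 of 4 Lxn CpGs, and at 9.08% of all 399856 listed CpGs on chromosomes. The 4 upstream windows overlap and all hold this same occurrence, so they are not separate observations. The motif was searched after the sequence was seen, and a match is a description only.

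Reads at listed CpGs per mouse ran from 2969907 to 23345592, and 28 of 40 mice had all 12 members. A level rested on 10 or more reads in each mouse, with a median of 17 to 24 reads by CpG and up to 59. The 4 intron CpGs were covered in 37 or 38 mice, upstream CpGs 3 and 4 in 36, upstream CpGs 1 and 2 in 34, and the Lxn CpGs in 35. The 6 members covered in at least 36 mice (the 4 intron CpGs and upstream CpGs 3 and 4) entered the fits across all CpGs, as did 262317 CpGs of the whole list. A test gave a value only where levels varied within the groups compared, which held for 238168 to 242393 CpGs in the 4 comparisons and 254765 for the interaction, and shares of CpGs called are shares of these. Of the 10 hepatocyte marker genes examined for the tissue, only Hnf4a and Foxa3 had promoter CpGs in those fits, with mean levels of 23.0% at 1 CpG and 6.54% over 8 CpGs, and the muscle and neural genes Myod1 and Pax6 had 11.5% and 5.87%, so promoter methylation gave no useful check of the labelled tissue.

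Over all mice, the mean level was 34.8%, 12.3%, 39.6% and 38.2% at intron CpGs 1 to 4, and 49.8%, 38.8%, 40.3% and 55.2% at upstream CpGs 1 to 4. Of the fitted CpGs of the whole list, 53.9% had a mean below 10% and 17.9% a mean of 90% or more, while 15.2% had a mean from 20 to 80%, the range that held all the Rarres1 members but intron CpG 2. A bin chosen for large differences cannot lie near 0 or 100%, so nothing is read from this range. The nearest listed CpGs outside the window, at 67250235 and 67424105, lay 14765 and 89105 bp beyond its edges. They had mean levels of 97.8% and 86.2%, with group means from 95.6 to 99.5% and from 84.97 to 87.1%. The first and last CpGs inside the window had 53.8% and 55.2%. No boundary is read from CpGs so far apart.

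The level of the intron bin, the mean of its 4 CpGs in mice with all of them, was highest in HF/LF animals. It ran from 30.5% through a median of 40.6% to 53.3% in those animals (41.2% ± 6.99, SD, n = 10). In LF/LF animals it ran from 21.9% through 32.1% to 43.4% (33.4% ± 6.90, SD, n = 9). Both groups fed HF were lower: offspring of LF fed dams ran from 20.6% through 26.2% to 31.7% (26.3% ± 3.48, SD, n = 8), and offspring of HF fed dams from 13.5% through 21.4% to 32.5% (23.7% ± 5.84, SD, n = 9).

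Between post-weaning diets, animals fed HF had 17.4 ± 2.97 percentage points (SE) less methylation in the intron bin than animals fed LF among offspring of HF fed dams. These groups barely overlapped: 8 of 9 animals fed HF were below every animal fed LF, and 8 of 10 animals fed LF were above every animal fed HF. Among offspring of LF fed dams the difference was −7.08 ± 2.71 points, with 1 of 8 animals fed HF below every animal fed LF and 5 of 9 animals fed LF above every animal fed HF. Between maternal diets, animals fed LF and born from HF fed dams were 7.73 ± 3.19 points higher than those born from LF fed dams, and animals fed HF differed by −2.61 ± 2.37 points, little more than the standard error. The 2 post-weaning differences were themselves 10.3 points apart (−10.3 ± 4.06, HF fed dams minus LF fed dams).

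The upstream bin, the mean of CpGs 3 and 4, was also highest in HF/LF animals and next in LF/LF animals, with the order of the groups fed HF exchanged, and had larger steps and a wider spread. HF/LF animals ran from 23.3% through a median of 66.2% to 80.8% (64.1% ± 16.4, SD, n = 10), with 1 animal far below the other 9, whose lowest value was 58.3%. LF/LF animals ran from 33.3% through 55.3% to 80.8% (56.4% ± 15.3, SD, n = 8). Among animals fed HF, those born from LF fed dams ran from 11.8% through 26.5% to 54% (30.1% ± 14.5, SD, n = 9), and those born from HF fed dams from 22.9% through 37.7% to 58.7% (39.6% ± 12.1, SD, n = 9).

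The post-weaning difference of the upstream bin was −26.3 ± 7.24 points in offspring of LF fed dams and −24.5 ± 6.70 points in offspring of HF fed dams, 1.81 ± 9.85 points apart (HF fed dams minus LF fed dams). In the first comparison 5 of 9 animals fed HF lay below every animal fed LF, and 4 of 8 animals fed LF above every animal fed HF. In the second, with its 1 low animal fed LF, 1 of 9 animals fed HF lay below every animal fed LF, and 8 of 10 animals fed LF above every animal fed HF. The maternal differences were 9.54 ± 6.31 points in animals fed HF and 7.73 ± 7.57 points in animals fed LF, and the values of these groups overlapped widely. The 1 low HF/LF animal pulls down the difference in animals fed LF. Taking all 4 upstream CpGs, in the mice with all of them, gave group means of 50.5% (n = 6) and 32.8% (n = 8) in LF/LF and LF/HF animals, and 63.2% (n = 10) and 37.6% (n = 8) in HF/LF and HF/HF animals. With these, the maternal difference became 4.83 ± 5.32 points in animals fed HF and 12.7 ± 6.02 points in animals fed LF. The post-weaning difference became −17.7 ± 4.96 points in offspring of LF fed dams and −25.5 ± 5.90 points in offspring of HF fed dams, −7.85 ± 8.02 points apart (HF fed dams minus LF fed dams), so the sizes of these differences, and the sign of the gap between dams, depend on which cytosines and mice are taken.

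**Figure D1:**
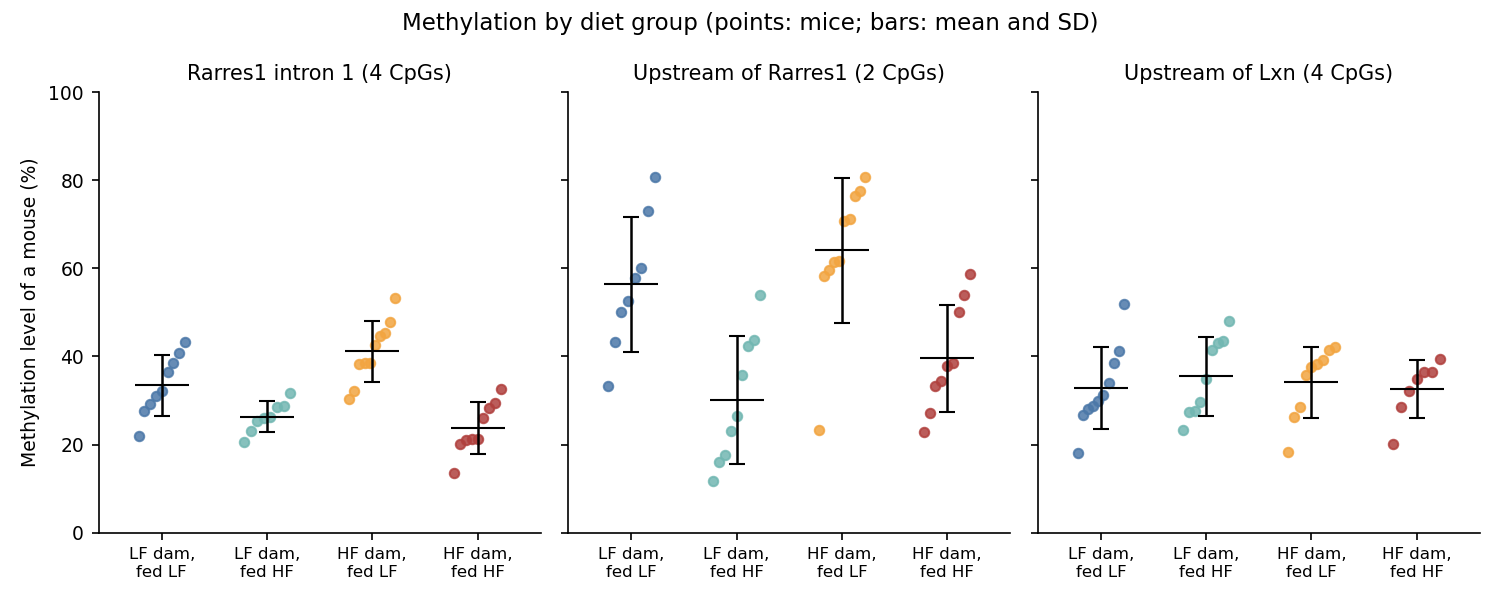
Methylation level (y axis, %) of each mouse in the 4 diet groups (x axis) for the intron bin, the upstream bin and the Lxn fragment; points are mice, and bars give the mean and SD. In the intron bin offspring of HF fed dams average 41.2% when fed LF and 23.7% when fed HF, and in the Lxn fragment the 4 groups average 32.6 to 35.5%.

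The Lxn fragment, read in the same libraries, had group means from 32.6 to 35.5%. Its mean over 4 CpGs ran from 18.2% through a median of 30.5% to 51.8% in LF/LF animals (32.8% ± 9.23, SD, n = 10), and from 23.2% through 34.96% to 48.1% in LF/HF animals (35.5% ± 8.87, SD, n = 9). In offspring of HF fed dams it ran from 18.3% through 37.5% to 42.0% when fed LF (34.2% ± 8.04, SD, n = 9) and from 20.1% through 34.8% to 39.5% when fed HF (32.6% ± 6.51, SD, n = 7). The 4 diet differences were between −2.88 and 2.62 points, each smaller than its standard error of 3.74 to 4.16 points. The largest single difference was at Lxn CpG 2 between post-weaning diets in offspring of LF fed dams, 10.1 ± 5.15 points higher in animals fed HF, and the same CpG differed by −7.95 ± 5.52 points between maternal diets in animals fed HF. These 4 CpGs were covered in 35 mice and so stood outside the fits across all CpGs.

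CpG by CpG, 3 of the 4 intron CpGs carried the intron difference. In offspring of HF fed dams, intron CpG 1 averaged 49.2% ± 6.41 (SD, n = 10) when fed LF, from 41.7 to 60%, and 23.6% ± 11.6 (SD, n = 10) when fed HF, from 8.33 to 44.4%, a difference of −25.6 ± 4.18 points (SE). Intron CpG 3 averaged 51.9% ± 11.01 and 30.2% ± 10.3 in the same groups (−21.7 ± 4.76 points), and intron CpG 4, read from the other end of the fragment, averaged 50.7% ± 10.7 and 30.7% ± 11.3 (−19.9 ± 5.04 points). Intron CpG 2, the least methylated, averaged 12.9% ± 8.65 and 9.82% ± 8.24 (−3.04 ± 3.78 points). Among offspring of LF fed dams intron CpG 3 differed most, with 44.7% ± 6.95 (n = 9) when fed LF and 31.3% ± 5.71 (n = 9) when fed HF, −13.3 ± 2.997 points, while the differences of the other intron CpGs, from −5.78 to −3.58 points, were of the size of their standard errors (3.26 to 6.79 points).

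All 4 upstream CpGs were lower in animals fed HF under both maternal diets. In offspring of HF fed dams, upstream CpG 1 averaged 67.1% ± 14.4 (SD, n = 10) when fed LF and 38.4% ± 18.5 (n = 9) when fed HF, and upstream CpG 4 averaged 72.8% ± 16.8 (n = 10) and 44.1% ± 13.4 (n = 9), each a difference of −28.7 points. Upstream CpG 2 differed by −26.1 ± 7.13 points and upstream CpG 3 by −20.3 ± 7.31 points. In offspring of LF fed dams the minus-strand cytosines, upstream CpGs 3 and 4, differed by −24.0 ± 8.05 and −28.6 ± 7.96 points, and the plus-strand cytosines, CpGs 1 and 2, by −10.1 ± 7.48 and −7.96 ± 6.47 points. Only 6 LF/LF animals covered the plus-strand cytosines, against 8 for the minus strand.

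**Figure D2:**
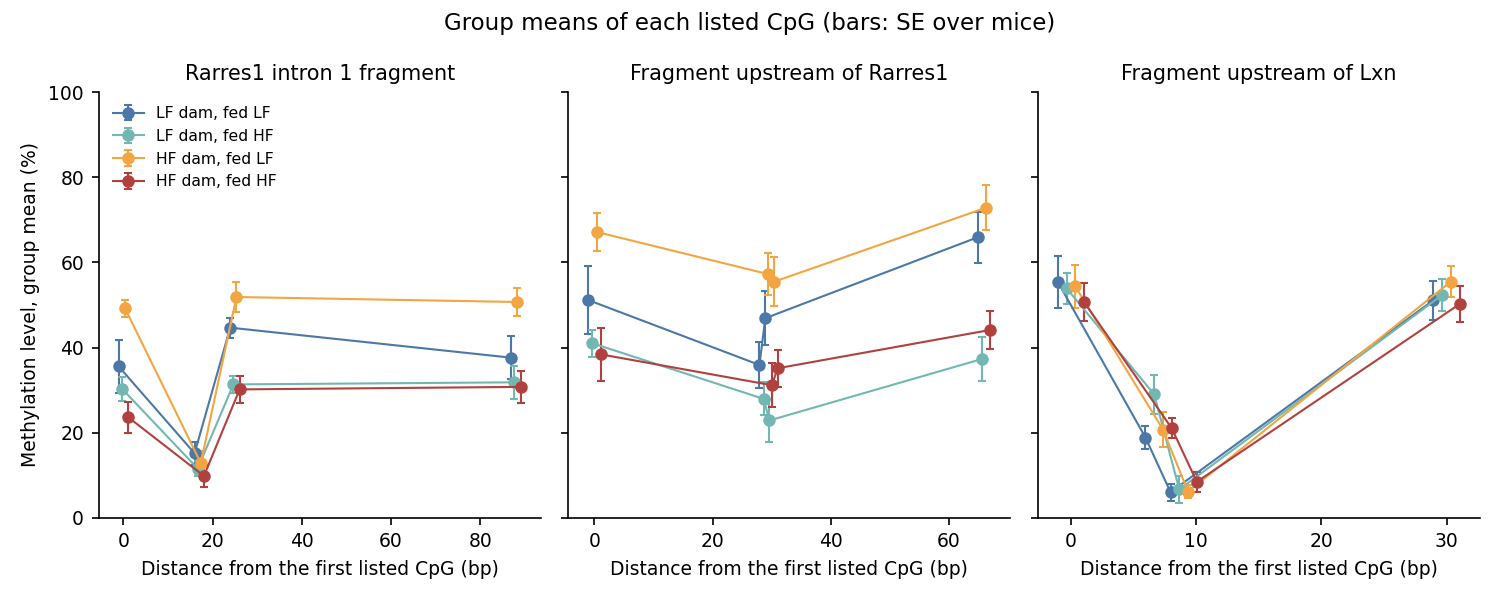
Mean methylation level (y axis, %) of each listed CpG by diet group, against distance from the first listed CpG of its fragment (x axis, bp, with groups shifted sideways for legibility); bars are SE over mice. Intron CpG 2 is low in every group, from 9.82 to 15.1%, and the 4 lines of the Lxn fragment lie close together, with the widest gap at its second CpG.

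**Figure D3:**
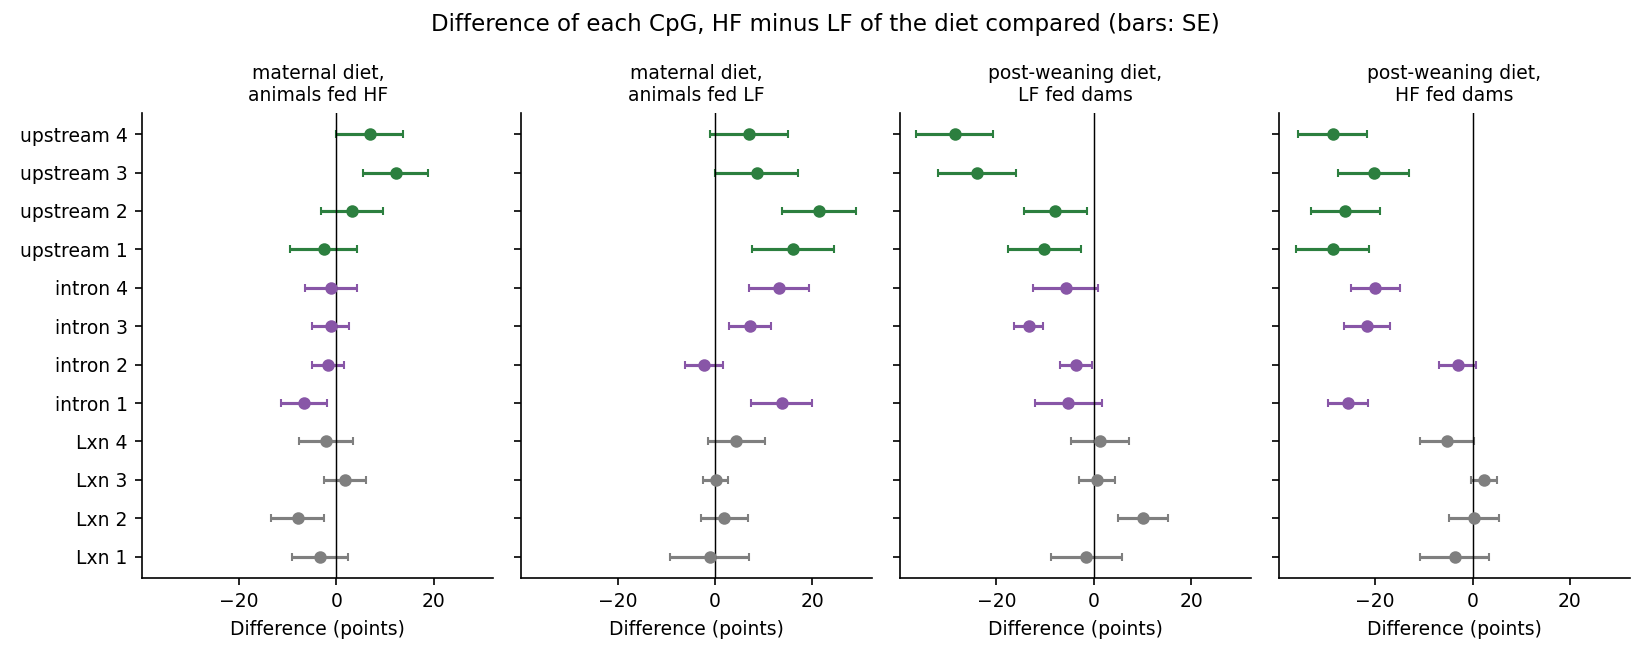
Difference in methylation (x axis, percentage points, HF minus LF of the diet compared) of the 12 CpGs (rows) in the 4 comparisons (panels), with SE bars. In offspring of HF fed dams all 8 Rarres1 CpGs lie below 0, from −28.7 to −3.04 points, and the 4 Lxn CpGs lie from −5.28 to 2.28 points.

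Counts of members called stand beside the share of all CpGs with a test value that were called by the same rule; since the window was selected on these differences, nothing is read from the counts. By the two-group test of the study's methods at p below 0.05, 5 of 6 members were less methylated in animals fed HF and born from HF fed dams, where 4.06% of all CpGs passed in either direction. The count was 3 of 6, all less methylated in animals fed HF, among offspring of LF fed dams (4.03% of all CpGs). It was 2 of 6, both more methylated in offspring of HF fed dams, among animals fed LF (3.99%), 0 of 6 among animals fed HF (3.72%), and 1 of 6 for the interaction of both diets (4.18%). After adjustment over all CpGs no member passed a false discovery rate of 5% in any of these, where 0.00124%, 0.00084%, 0%, 0% and 0% of all CpGs passed. On the scale of bins, with every listed CpG a mouse covered averaged, the upstream bin had the second largest post-weaning difference of 42343 bins in offspring of HF fed dams (rank 2) and the intron bin rank 11; by size over standard error the ranks were 13 and 3. In offspring of LF fed dams the upstream bin had rank 6 and the intron bin rank 845 (72 and 360 by size over standard error). Between maternal diets their ranks were 43 and 402 in animals fed LF (3086 and 807) and 2279 and 7427 in animals fed HF (11964 and 9621). Which comparison led to the choice of the bins is not stated.

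The levels of the bins within a mouse are also given without a test, since both bins were chosen on values of these mice and the diet differences enter them. The upstream bin exceeded the intron bin in 29 of 33 mice with both, and the mean excess over all 33 was 16.6 ± 17.7 points (SD). Group by group the excess was 21.5 ± 16.4 points in 8 LF/LF animals, 23.0 ± 18.7 points in 10 HF/LF animals and 17.2 ± 14.5 points in 8 HF/HF animals (SD). It was 1.34 ± 14.6 points in 7 LF/HF animals, the group with the lowest upstream level. The intron bin minus the Lxn fragment was −1.65 ± 11.8 points (n = 33), with the intron higher in 15 mice. The upstream bin exceeded Lxn in 22 of 31 mice, and the mean difference over all 31 was 15.3 ± 22.3 points.

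Levels also stepped between CpGs a few bases apart, in pairs chosen after their levels were seen and therefore given without a test. Intron CpG 2 was below CpG 1 in 35 of 38 mice, equal in 2 and above in 1, by 22.5 ± 13.4 points on average (SD), and below CpG 3, 8 bp away, in all 38, by 27.3 ± 12.7 points. Intron CpGs 1 and 4, at opposite ends of the fragment, differed by 2.93 ± 18.5 points on average (CpG 4 minus CpG 1, SD, n = 36, higher at CpG 4 in 19 mice). In the upstream fragment the middle CpG was the least methylated on both strands. On the minus strand CpG 4 exceeded it in 28 of 36 mice (equal in 7), and the mean excess over all 36 was 14.9 ± 12.7 points. On the plus strand CpG 1 exceeded it in 27 of 34 mice (equal in 2), and the mean excess over all 34 was 10.97 ± 10.6 points. In the Lxn fragment the means ran from 53.8% at the first CpG to 6.71% at the third, 47.1 ± 15.1 points apart in 35 of 35 mice.

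The middle upstream CpG was the only member read on both strands, which are separate molecules in bisulfite libraries. Its mean was 38.8% on the plus strand and 40.3% on the minus strand, and in the 32 mice with both strands the minus strand differed by 0.0874 ± 18.8 points (minus minus plus, SD). This mean joins groups whose means differed in sign, and differences between groups were not tested. The minus strand was 9.52 ± 18.8 points higher in LF/LF animals (n = 6) and 3.83 ± 15.0 points higher in HF/HF animals (n = 8). The difference was −8.31 ± 19.6 points in LF/HF animals (n = 8) and −1.84 ± 20.1 points in HF/LF animals (n = 10). The standard errors of these differences were 7.66, 5.30, 6.94 and 6.35 points. Those in LF/LF and LF/HF animals exceeded their standard errors, though not widely, and the others did not. The HF/LF mean includes 1 mouse with 13.3% on the minus strand and 60.7% on the plus strand. Strand against strand within diet groups, Pearson's r was 0.275 (permutation p = 0.148, adjusted p = 0.991 over 9 relations) and Spearman's rho 0.280 (p = 0.13, adjusted p = 0.966), and r was 0.208 without the 2 mice farthest from the median. Within groups it was 0.287 in LF/LF, −0.118 in LF/HF, 0.298 in HF/LF and 0.524 in HF/HF animals. The depth limits this comparison: reads alone would give a spread of 11.3 and 11.2 points on the strands, beside 14.2 and 16.2 points measured within groups.

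Mice of the same diet group that were high in one bin were not detectably high in the other. Depth limits this comparison too, and a relation could be hidden. At the intron CpGs the SD within groups was 0.817 to 1.22 times that from read sampling. Over 33 mice, with each group's mean removed, Pearson's r between the intron and upstream bins was −0.0395 (permutation p = 0.84, adjusted p = 0.991) and Spearman's rho −0.00802 (p = 0.966, adjusted p = 0.966), and r was −0.0895 without the 2 mice farthest from the median. Within groups r was −0.00897 in LF/LF animals (n = 8), 0.317 in LF/HF animals (n = 7), −0.140 in HF/LF animals (n = 10) and −0.113 in HF/HF animals (n = 8). No relation within groups was detected of the intron and upstream bins with the Lxn fragment (r = −0.0692 and 0.0473), the mouse's mean methylation over CpGs covered in all mice (0.149 and 0.00185) or its log10 read number (−0.0172 and −0.108). For these 6 the adjusted permutation p was 0.991, Spearman's rho ran from −0.140 to 0.114 (adjusted p = 0.966), and r without the 2 farthest mice from −0.164 to 0.169. Plus and minus ends of the intron fragment had r = −0.127 (n = 36, adjusted permutation p = 0.991) and rho = −0.0429 (adjusted p = 0.966), and r was 0.131 without the 2 farthest mice. Within groups this r was −0.418 in LF/LF animals (n = 9), −0.380 in LF/HF animals (n = 8), 0.552 in HF/LF animals (n = 10) and −0.0819 in HF/HF animals (n = 9). The pooled value thus joins groups whose r differed in sign, with few mice in each, and differences between groups were not tested.

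**Figure D4:**
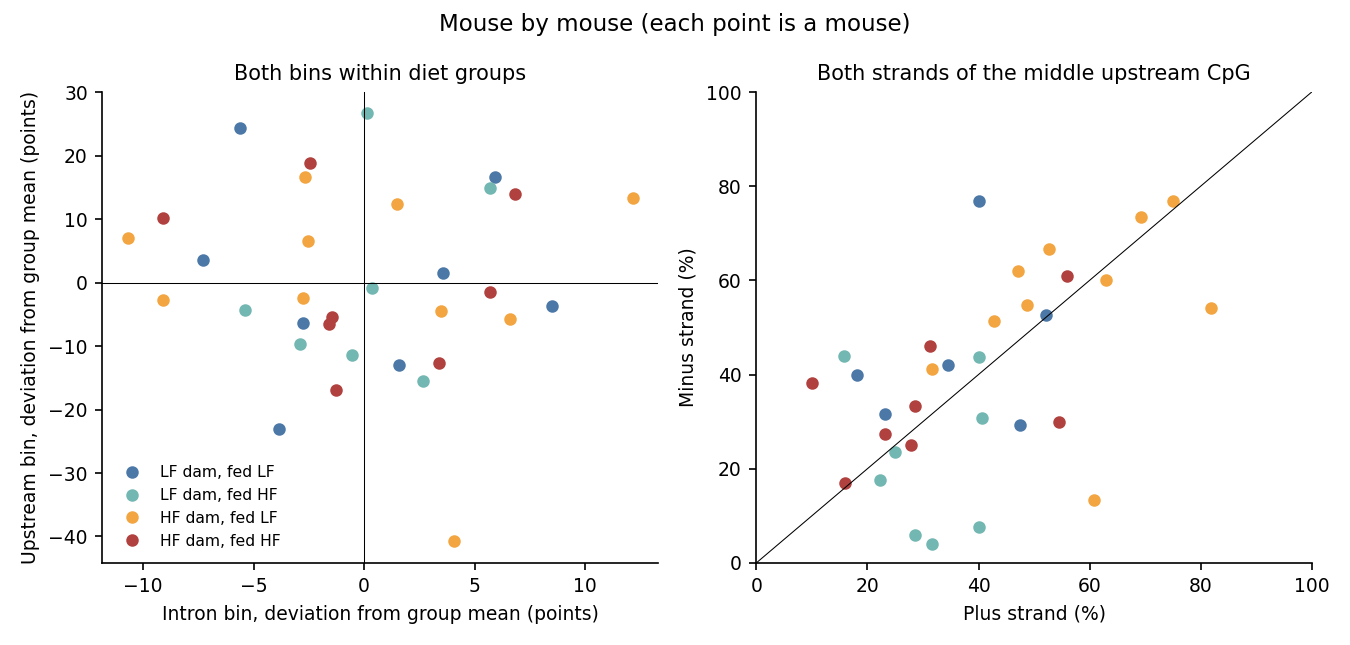
Left, deviation of each mouse from its diet group's mean (percentage points) in the upstream bin (y axis) against the intron bin (x axis); right, level (%) of the middle upstream CpG on the minus strand (y axis) against the plus strand (x axis), where the line marks equal levels. No trend is seen on the left (r = −0.0395, 33 mice), and on the right the minus strand differs on average by 0.0874 points in 32 mice, from −8.31 points in LF/HF animals to 9.52 points in LF/LF animals.

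At the intron CpGs the spread between mice of one group was near the size that read numbers give, and at the upstream CpGs it was larger. Over CpGs with a mean from 20 to 80% in the whole list (39918 CpGs), the SD within diet groups was a median of 1.15 times the SD expected from binomial sampling of the reads. Intron CpG 3 had the least, 8.89 points measured and 10.9 expected (ratio 0.817, with 0.614% of those CpGs lower), and intron CpGs 1, 2 and 4 had ratios of 1.13, 1.03 and 1.22. The 4 upstream CpGs had ratios of 1.33, 1.26, 1.44 and 1.39, higher than 87.2%, 76.4%, 95.9% and 93.1% of those CpGs. The spread of upstream CpG 3 was 16.2 points, where the reads alone give 11.2.

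The bins elsewhere whose levels most resembled these across mice were named by the nearest gene, as a description over mice that include the diet groups. Of 30676 bins with 3 or more fitted CpGs, the intron bin was most like bins in Zc3h12a, an RNA-degrading regulator of inflammation (chromosome 4, 124799001 to 124800000; Pearson's r = 0.668, n = 36), Adrbk1, a kinase that desensitises receptors (chromosome 19, 4292001 to 4293000; r = 0.635, n = 33), and Scara5, a ferritin receptor (chromosome 14, 66378001 to 66379000; r = 0.621, n = 36). The upstream bin was most like bins in Spred2, an inhibitor of the Ras pathway (chromosome 11, 19840001 to 19841000; r = 0.625, n = 36), Ctnna1, the cell adhesion protein alpha-catenin (r = 0.624, n = 35), and the same Scara5 bin (r = 0.623, n = 36). The Scara5 bin averaged 60.5% and 48.4% in LF/LF and LF/HF animals, and 72.3% and 44.1% in HF/LF and HF/HF animals. The Zc3h12a bin averaged 24.9%, 18.2%, 28.9% and 17.8% in the same order, and the Spred2 bin 41.6%, 30.6%, 54.3% and 38.8%. The Adrbk1 bin stayed between 95.2 and 97.8% and the Ctnna1 bin between 1.04 and 2.95%, so a high correlation there spans only a few points.

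Genes of the retinoic acid pathway were described beside Rarres1 from a list of receptors, binding proteins and enzymes, which also held Lxn. Of its 29 names, 28 were annotated and 23 had CpGs passing the coverage rule in the gene or the 5000 bp before it, 409 CpGs in all; Rarres2, Aldh1a1, Dhrs9, Adh7 and Lxn had none. At p below 0.05, 35 of 389 list CpGs (9.00%, beside 3.72% of all CpGs) were called between maternal diets in animals fed HF, 11 more and 24 less methylated in offspring of HF fed dams, and 14 of 381 (3.67%, beside 3.99%; 10 more, 4 less) in animals fed LF. Between post-weaning diets 25 of 388 (6.44%, beside 4.03%; 15 more, 10 less in animals fed HF) were called in offspring of LF fed dams and 25 of 385 (6.49%, beside 4.06%; 8 more, 17 less) in offspring of HF fed dams. None of these CpGs passed a false discovery rate of 5%. Calls over all CpGs leaned the same way in each comparison. In the order above they were 3647 more and 5262 less methylated, 5759 and 3852, 5292 and 4317, and 3539 and 6310. With the mouse's mean methylation as covariate they were 4262 and 4534, 6416 and 5230, 5287 and 4433, and 4710 and 4691. Median differences over the list were −0.403, 0.0758, 0.358 and −0.229 points, beside −0.151, 0.164, 0.0832 and −0.211 over all CpGs with a test value, in the same order.

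Single genes of the list, picked after their counts were seen, are given in all 4 comparisons, where 3.72 to 4.06% of all CpGs were called. Of the 48 fitted CpGs of the receptor gene Rara, 1 more and 4 less methylated were called between maternal diets in animals fed HF, and 1 more in animals fed LF. Between post-weaning diets Rara had 3 more and 2 less in offspring of LF fed dams, and 1 more and 5 less in offspring of HF fed dams. Rarg (30 CpGs), Rxrb (31) and Rxra (22) had at most 4 called in any comparison. Crabp1, which binds retinoic acid in the cytoplasm, had 5 of 16 less methylated between maternal diets in animals fed HF, none in animals fed LF, and between post-weaning diets 1 more in offspring of LF fed dams and 1 less in offspring of HF fed dams. The enzymes Cyp26a1 and Cyp26b1 break retinoic acid down. In the order maternal diet in animals fed HF and LF, then post-weaning diet in offspring of LF and HF fed dams, Cyp26b1 (44 CpGs) had 0, 3, 1 and 0 more and 3, 1, 0 and 3 less methylated. Cyp26a1 (43 CpGs) had 1, 1, 3 and 2 more and 3, 1, 0 and 0 less. Aldh1a2, which makes retinoic acid (39 CpGs), had 4, 3, 1 and 1 more and 0, 0, 1 and 3 less. Neighbouring CpGs share reads, so such counts are not independent. Promoter means of the list were low, from 0.843% in Rbp4, the blood carrier of retinol, to 9.61% in Rara, with exceptions at Stra6, the retinol-uptake receptor (31.6%, 3 CpGs), Cyp26c1 (85.9%, 1 CpG) and Bcmo1, which cleaves beta-carotene to retinal (10.8%, 2 CpGs). Such a promoter window runs from 1000 bp before a start to 500 bp after it. The Rarres1 fragments, with their intermediate levels, lay outside the window of its annotated start. The annotation marks the 5′ start of this transcript as not found, so its true promoter window is not known.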

How the data were processed

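Per the labels and the study's methods, the authors made MspI-cut liver DNA into libraries with a barcode for each mouse, kept library molecules from 150 to 600 bp, treated them with bisulfite and read 50 bases from a single end; Bismark aligned the reads to mm9 (version not given in the sources used here). The deposited counts are methylated and total reads per CpG and mouse, with at least 10 reads where a value is given, for CpGs with values in at least 33 mice. The deposited fraction equalled the ratio of the counts at all 14624144 values compared (tolerance 1e-06) and was not used further. Other columns were none (0 of no mapped mouse).

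From the counts, percent methylation was computed and CpGs covered in at least 36 of 40 mice (90%, the coverage stated in the study's methods) were fitted; this leaves 262317 of the 400298 deposited CpGs, so the set differs from the deposited one, which was an alternative. They were tested by Student's test in each of 4 comparisons, with Benjamini-Hochberg adjustment over all CpGs with a test value (levels that vary within the groups); the interaction came from a linear model. The members and lists were chosen with earlier results of these data known. CpGs of the bins of the rule, the highest and lowest CpG of the other bin, and the 3 most alike bins elsewhere (over 1000000 bp away) are named. Deviations from group means were related by permutation within groups, 100000 resamples; levels within mice are described without tests. Alternatives were Welch's test, a rank-sum test, limma 3.58.1 on log2 ratios with 0.5 reads added, a quasi-binomial model with a dispersion of at least 1 (a floor set after simulated data gave false calls without it), covariates and other coverage rules. Fits were tested on simulated data. Annotation was GENCODE for the same build as the reference genome. Reads carry no molecular identifiers, so sampling errors cover counting only. Python 3.11.15, numpy 2.4.6, scipy 1.17.1 and R 4.3.3 were used.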

Additional observations from a re-analysis of the deposited data

Results flagged for a closer look

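In 56 sets of values (the 12 member CpGs and the means of the 2 bins in each diet group), 5 had a single mouse far from the rest by Dixon's criterion, and chance gives about 1 in 20. The upstream bin of HF/LF animals had a mouse at 23.3%, with the next at 58.3%, and upstream CpG 4 in that group had a mouse at 33.3%, with the next at 62.5%; these are the same mouse, and the bin mean contains the CpG, so they are not separate. Intron CpG 3 had a mouse at 45.5% among LF/HF animals, with the next at 33.3%. In the Lxn fragment, CpG 1 had a mouse at 20% among HF/LF animals (next 45%), and CpG 3 a mouse at 30.4% among LF/HF animals (next 11.1%). Their cause was not tested.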

How the results depend on the processing

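No paired analysis was run, because the labels name no litter, give each mouse a number of its own and groups share none. Grouping mice by runs of their numbers was not tried. The post-weaning counts of members at p below 0.05 stayed within 1.5 times the main count under every alternative run, but with all CpGs as deposited they came from 12 members instead of 6, so that 3 of 6 became 3 of 12 (beside 3.88% of all CpGs) and 5 of 6 became 7 of 12 (beside 3.97%). The maternal count in animals fed LF (2) became 1 by Welch's test, 0 by the exact rank-sum test, 0 with the mouse's mean methylation as covariate and 1 with log10 reads as covariate, and that in animals fed HF (0) became 1 by limma. The cause was not tested. All 8 bin differences kept their sign. The excess of the upstream over the intron bin fell to 1.34 points within LF/HF animals. The correlation of the bins (−0.0395) became 0.147 (permutation p = 0.484) with all CpGs as deposited, an alternative added after seeing the data, as was the mean over the CpGs a mouse covers (−0.0499). In promoter windows alone, which hold fewer CpGs, the retinoic acid list had 18 of 177, 6 of 168, 13 of 173 and 8 of 171 CpGs called in the 4 comparisons (10.2%, 3.57%, 7.51% and 4.68%, beside 3.72%, 3.99%, 4.03% and 4.06% of all CpGs) instead of 35 of 389, 14 of 381, 25 of 388 and 25 of 385. Requiring 20 reads, or coverage in all 40 mice, left no member and gave no value. Depth limits single values: at 17 to 24 reads, sampling alone gives an SD of up to 11.97 points for a CpG of a mouse.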
